A study of Rattus norvegicus with 4 samples.

Results

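The insulin-like growth factor axis was examined through 10 genes in the hippocampus of newborn rats: the ligands Igf1 and Igf2, the receptors Igf1r and Igf2r, and the binding proteins Igfbp2, Igfbp3, Igfbp4, Igfbp5, Igfbp6 and Igfbp7. These genes were selected on their measured values as well as their names, since the set was drawn up with results of these libraries known. Their levels and differences are therefore given as a description, with no test. The 10 genes were found by symbol among 17445 rows of the 4 expression files, 13984 of which carry a gene ID, and each of the 10 was listed in all 4 libraries.

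RNA-seq was made from Wistar pups on postnatal day 1 in 4 groups, males and females of control and of BPA-treated dams, with 1 library per group. Where 4 values stand in a row below, they are those of control males, BPA males, control females and BPA females. Each library was a pool of 3 hippocampi. The dams, 10 weeks old according to the sample records, received bisphenol A (BPA), a plasticizer with estrogen-like activity, at 5000 µg/kg body weight daily from gestation day 1 until birth, or vehicle alone. The values are FPKM, a measure of fragments that takes account of the length of the gene and of the size of the library. No group had a second library, so the spread between pools of the same group is unknown, and litter, dissection and treatment cannot be told apart in any difference between 2 libraries. The 4 comparisons (BPA against control in each sex, and female against male in each treatment) use the same 4 libraries and are not independent of each other.

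The steps between low FPKM values gave a depth of 8650000 to 8900000 fragments per library, so 1 FPKM in a transcript of 1 kb stood for 8.14 to 8.26 fragments. Hippocampal pyramidal and granule neuron markers were present as labelled, with 12 of 12 at 1 FPKM or more in every library. The libraries did not hold the same amount of other tissues. The summed level of 14 meningeal and fibroblast markers was 105, 101, 380 and 86.5 FPKM. Of the female control sum, 209 FPKM came from the gene Ptgds alone. The sum of 12 choroid plexus markers was 272, 715, 13.5 and 49.3 FPKM, most of it transthyretin (Ttr) except in female control. In the female BPA pool Prox1, a granule neuron factor, was at 7.61 FPKM, against 10.2 to 12.8 FPKM in the others.

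IGF1 and IGF2 are secreted growth factors that act through the IGF1 receptor, a tyrosine kinase upstream of the PI3K-AKT and RAS-ERK pathways. The IGF2 receptor, which also binds mannose 6-phosphate, takes IGF2 into the cell for degradation. The binding proteins hold the ligands outside the cell, extend their life and release or withhold them from the receptors. In the developing brain IGF1 is made by some neurons and other cells, and Igf2, an imprinted gene, is expressed mainly in the meninges, the choroid plexus and blood vessels.

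Igf2 was the member with the widest range among those with more than a few fragments, and its annotated start sites are shown here for that reason. The RefSeq promoter table for assembly GRCr8 held windows for 10 of the 10 members, 11 windows in all because Igf2 has 2. The 100 bases before each Igf2 start, on the minus strand of chromosome 1, are given 5′ to 3′. Below them are the same windows of Igfbp2 (plus strand) and Igfbp5 (minus strand), the 2 most abundant binding protein genes by mean level, which lie side by side on chromosome 9 with 0 annotated genes between them. Capitals mark the run ATAAAA, which resembles a TATA box, and the run GGGCGG, the core of a GC box.
Igf2, chr1:207250476-207250575: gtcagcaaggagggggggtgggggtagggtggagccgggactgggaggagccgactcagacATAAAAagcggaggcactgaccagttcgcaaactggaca
Igf2, chr1:207253981-207254080: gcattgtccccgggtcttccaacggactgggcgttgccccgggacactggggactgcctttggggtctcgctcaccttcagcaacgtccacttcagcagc
Igfbp2, chr9:81864711-81864810: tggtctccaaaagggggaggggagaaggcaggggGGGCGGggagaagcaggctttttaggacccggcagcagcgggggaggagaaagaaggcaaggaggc
Igfbp5, chr9:81914188-81914287: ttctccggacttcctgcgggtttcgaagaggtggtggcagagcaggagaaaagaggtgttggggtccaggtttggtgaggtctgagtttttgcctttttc

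Over the 250 bases before the start, searched on both strands with overlapping motifs counted separately, ATAAAA was found in 1 of the 11 windows, the first Igf2 window printed. It was found in 18.6% of 33469 rat windows of the same length. TATAAA was found in 1 of the 11, that of Igfbp4, against 12.9% of all windows, and GGGCGG in 5 of the 11, against 30.5%. FPKM values are summed over a gene, so which of the Igf2 starts was used is not known from these files.

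Among the ligands, Igf1 was low and similar in the 4 pools. Its level was 4.84 FPKM in control males and 4.68 in BPA males, and 5.41 FPKM in control females and 5.69 in BPA females. These values rest on 73 to 88 fragments each. The ratio of BPA to control was 0.967 in males, with an exact 95% counting interval of 0.689 to 1.35, and 1.05 in females, with an interval of 0.768 to 1.43. Counting intervals here and below cover the sampling of fragments only, not the difference between pools.

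Igf2, the fetal growth factor, reached 8.86 FPKM in control males and 10.9 in BPA males, and 29.6 FPKM in control females and 8.16 in BPA females. The female control pool stood apart and the other 3 lay close together. The estimated fragments behind these values were 282, 346, 918 and 257. In females Igf2 was 3.63-fold lower in BPA than in control (counting interval 3.15 to 4.17), a difference of -1.74 on the log2(FPKM + 1) scale, which is used for all log2 differences below. In males it was 1.23-fold higher in BPA (1.05 to 1.44), a log2 difference of 0.27. Female control exceeded male control by 1.63 on the log2 scale, whereas female BPA was lower than male BPA, with a log2 difference of -0.38. In bulk tissue, fewer cells of a type and less RNA per cell cannot be told apart.

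**Figure D1:**
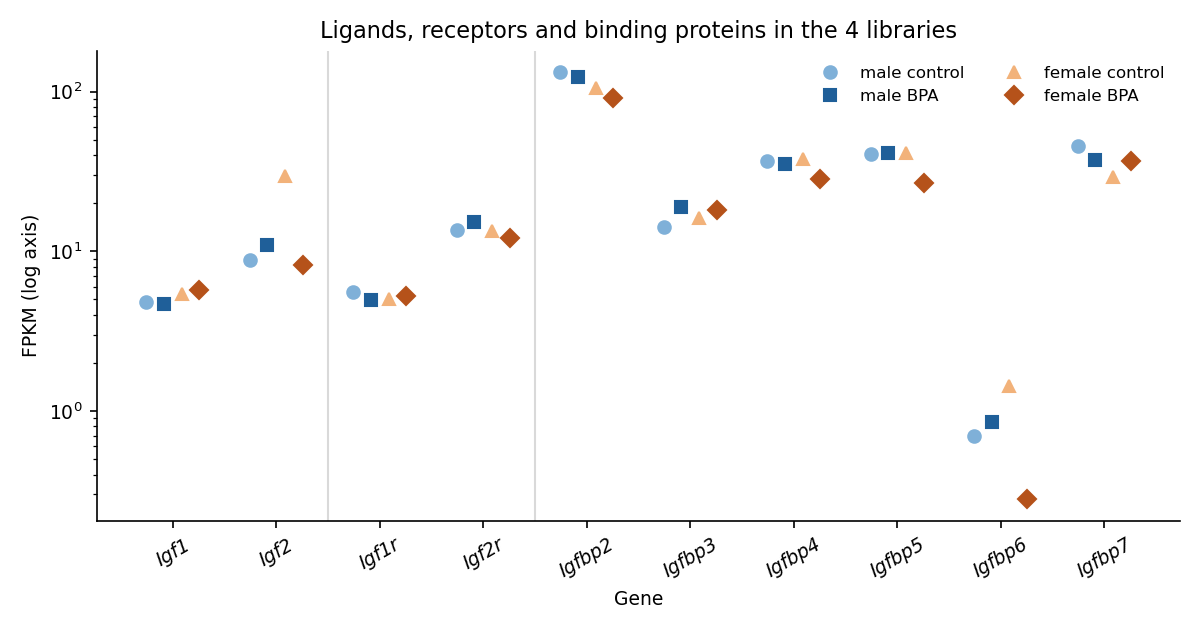
FPKM on a log axis (vertical) for the 10 genes (horizontal) in each of the 4 libraries, 1 point per library and no error bars, with vertical lines between ligands, receptors and binding proteins. Igf2 in female control, at 29.6 FPKM, lies above the other 3 pools, at 8.16 to 10.9 FPKM, while Igf1 spans only 4.68 to 5.69 FPKM.

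The summed markers of meninges and fibroblasts and those of endothelium were highest in female control, as Igf2 was. In female control, 13 of the 14 meningeal and fibroblast markers had their highest value, and without prostaglandin D synthase (Ptgds), the leading gene, their sum was 76.4, 61.2, 171 and 68.4 FPKM. Of the defining markers, Foxd1 was under 0.5 FPKM in every pool. All 9 endothelial markers listed in the 4 libraries were also highest in female control, with sums of 105, 101, 120 and 98.6 FPKM. Choroid plexus markers did not follow Igf2, since their sum was lowest in female control, and without Ttr it was 9.52 FPKM there, between 6.93 FPKM in female BPA and 26.0 FPKM in male BPA. Set against 6 matrix genes (Col1a1, Col1a2, Col3a1, Dcn, Lum and Ogn), Igf2 was at 14.5 FPKM per 100 FPKM of these genes in control males, 24.4 in BPA males, 22.9 in control females and 16.0 in BPA females. On that scale female control lay a little under BPA males. Each of the 6 genes was itself highest in female control. Col1a2 and Dcn are also among the 5 rows picked below as most like Igf2. A flatter pattern is therefore partly built into this ratio, and nothing is concluded from it. The part of these tissues in the Igf2 difference was not tested.

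The 5 rows whose pattern was most like that of Igf2 were Col1a2, Aldh1a2, Gpc3, Dcn and Colec12. Likeness was measured as the largest absolute gap between the log2 patterns, each centred on its own mean, over the 4 libraries and 8354 rows with a mean of at least 5 FPKM, and 7 rows lay within 0.5 of Igf2. Col1a2, a type I collagen chain of fibroblasts, was at 14.4, 12.1, 32.7 and 13.1 FPKM. Aldh1a2, the retinoic acid enzyme of the meninges, was at 3.14, 3.25, 10.2 and 3.54 FPKM. Dcn, the proteoglycan decorin, was at 7.17, 6.18, 20.8 and 8.10 FPKM. In each of the 5, female control was the highest library, and with 4 points taken from the same libraries the likeness is a description only.

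H19 is the noncoding RNA gene next to Igf2, imprinted in the opposite direction, and the annotation places 0 protein-coding genes between them. It was detected at 1.22, 1.37, 4.60 and 1.63 FPKM, on 25, 28, 92 and 33 fragments. As for Igf2, female control was the high pool. H19 was 2.82-fold lower in female BPA than in female control (counting interval 1.88 to 4.34). The ratio of Igf2 to H19 was 7.26, 7.95, 6.43 and 5.01, a narrower span than that of either gene. These ratios rest on the few H19 fragments above and are given without intervals. Any 2 genes that are high in the same pool give such a narrowing, and joint control of Igf2 and H19 was not tested.

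**Figure D2:**
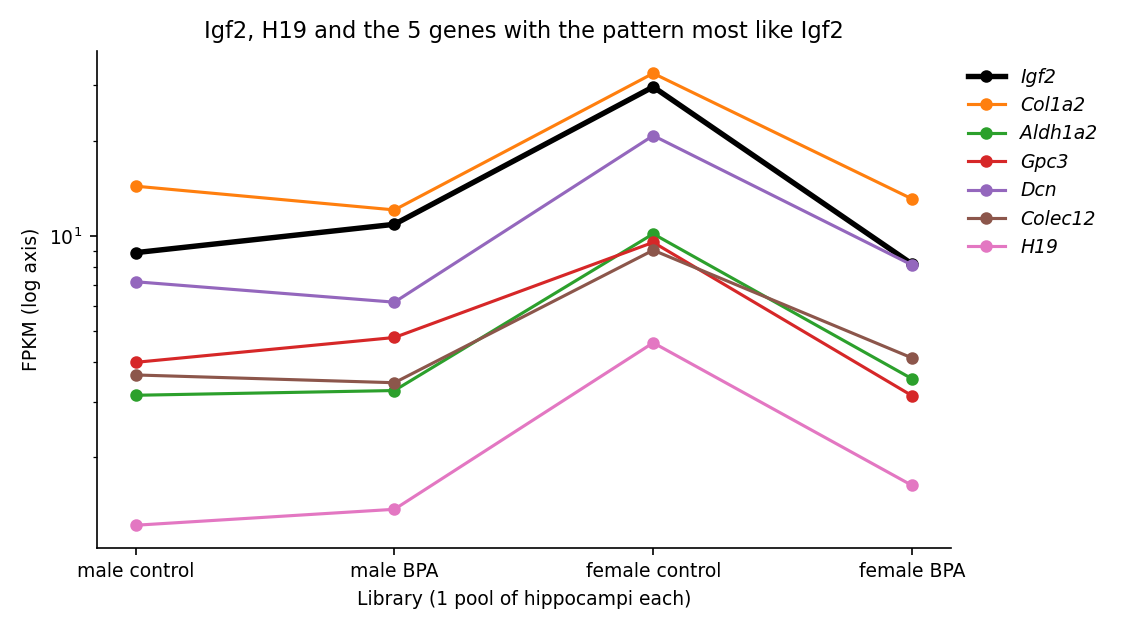
FPKM on a log axis (vertical) in the 4 libraries (horizontal) for Igf2 (thick black line), H19 and the 5 genes with the pattern most like Igf2, with lines joining the points of a gene only as a guide. Each of the 7 genes has its highest point in female control, 29.6 FPKM for Igf2 and 4.60 FPKM for H19.

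The receptors varied little. Igf1r, the signalling receptor, was at 5.57, 4.96, 5.04 and 5.26 FPKM. Its BPA to control ratio was 0.890 in males (counting interval 0.780 to 1.02) and 1.04 in females (0.914 to 1.20). Igf2r, the clearance receptor, was at 13.7, 15.2, 13.4 and 12.1 FPKM. It was higher in BPA than in control among males, by a ratio of 1.11 (1.02 to 1.20), and lower among females, by a ratio of 0.904 (0.826 to 0.989). Igf2r exceeded Igf1r in FPKM by a ratio of 2.30 to 3.06 in the 4 pools.

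Igfbp2, the main binding protein of fetal brain, was the most abundant member. Males had 132 FPKM in control and 123 in BPA, and females 106 FPKM in control and 90.8 in BPA. The 2 male pools were above the 2 female pools. The log2 difference between BPA and control was -0.11 in males and -0.22 in females, and that between female and male was -0.32 in control and -0.43 in BPA. Igfbp2 alone made up 45.2% to 49.0% of the summed binding protein FPKM in each pool.

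Igfbp5, a binding protein that also attaches to extracellular matrix, had 40.5 FPKM in control males, 41.0 in BPA males, 41.2 in control females and 26.6 in BPA females. Female BPA was the low pool, and the other 3 lay within 1 FPKM of each other. It was 1.55-fold lower than female control (counting interval 1.35 to 1.77), a log2 difference of -0.61. Igfbp4, a binding protein that mostly restrains the ligands, showed the same low pool, at 36.6, 35.2, 37.8 and 28.4 FPKM. Its log2 difference between female BPA and female control was -0.40, a 1.33-fold lower level (1.18 to 1.49). Female BPA was also the pool with the lowest Prox1 and Zbtb20 (16.2 FPKM, against 17.6 to 23.7 FPKM), which are markers of neuron types, and the part of the dissected region in the Igfbp5 and Igfbp4 values was not tested. Igfbp2, the neighbour of Igfbp5, differed less in the same comparison, with a log2 difference of -0.22.

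Igfbp7, a distant relative that binds the ligands weakly and is made by vessels, was at 45.7 FPKM with vehicle and 37.4 with BPA in males, and at 29.3 FPKM with vehicle and 36.9 with BPA in females. Male control was the highest pool and female control the lowest. It was lower in BPA among males, by -0.28 on the log2 scale, and higher among females, by 0.32. Between the 2 control pools the log2 difference, female minus male, was -0.62, and between the 2 BPA pools it was -0.02. Igfbp7 therefore did not follow the 9 endothelial markers, which were highest in female control.

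Igfbp3, the main carrier of circulating IGF, was at 14.2 and 19.1 FPKM in control and BPA males and at 16.1 and 18.1 FPKM in control and BPA females. It was higher in BPA than in control in both sexes, by a ratio of 1.34 in males (counting interval 1.15 to 1.57) and 1.12 in females (0.963 to 1.30). Igfbp6, which prefers IGF2, was at 0.70, 0.85, 1.43 and 0.28 FPKM. These levels stood for only 5, 6, 10 and 2 fragments. The ratio of female BPA to female control was 0.196 with a counting interval of 0.0212 to 0.934, so the size of that difference is hardly fixed at this depth.

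**Figure D3:**
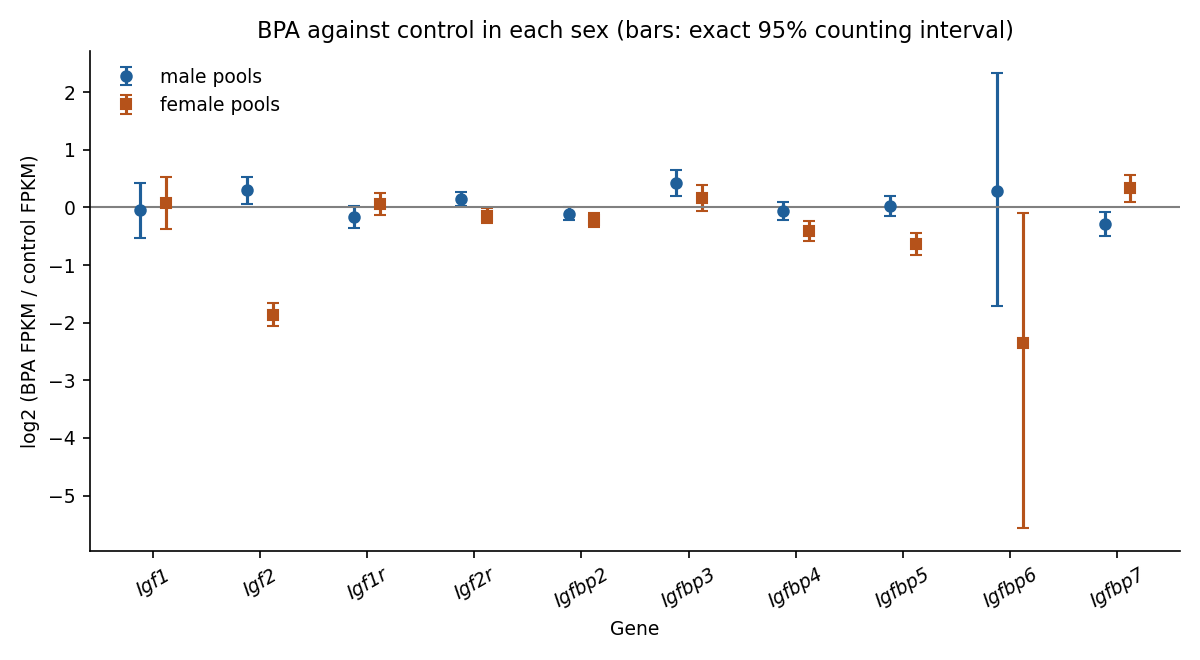
Log2 of the ratio of BPA to control FPKM (vertical, without a pseudocount) for the 10 genes (horizontal) in male pools (circles) and female pools (squares), with exact 95% counting intervals as bars, which leave out variation between pools. Igf2 in females, 3.63-fold lower in BPA, lies farthest from 0 among genes with short bars, and the widest bar belongs to Igfbp6, with 2 fragments in female BPA.

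A log2 difference of at least 0.5 in genes with a mean of at least 1 FPKM was used to count the members. In males, 0 of the 9 genes past the filter reached it, against a background of 7.26% of all rows, or 3.46% of those that carry a gene ID. In females, 2 of 9 passed, Igf2 and Igfbp5, both lower in BPA, against 10.1% of all rows and 6.15% of those with a gene ID. Igfbp6 was under the filter in both comparisons, and counted without it the female number was 3 of 10. Between the control pools, 3 of 10 passed, Igf2 and Igfbp6 higher and Igfbp7 lower in females, against 9.99% and 5.88%. Igfbp6 was past the filter there, at a mean of 1.065 FPKM, only through its higher value in female control. It rested on 5 fragments in males and 10 in females. Its ratio of female to male was 2.04, with a counting interval of 0.631 to 7.55, which includes 1. Between the BPA pools, 1 of 9 passed, Igfbp5, lower in females, against 8.58% and 4.62%. Since the members were chosen with these values known, the shares are given for scale and nothing is read from them. The median log2 difference over the 9 genes past the filter was -0.04 in males and -0.13 in females. The medians of all rows past the filter were 0.00 and -0.04. With Igfbp6 included, which is under the filter, the medians of the 10 genes were -0.01 and -0.18.

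The binding proteins together had sums of 270, 256, 232 and 201 FPKM, highest in control males and lowest in BPA females. The 2 ligands together were at 13.7, 15.6, 35.0 and 13.9 FPKM. Binding protein transcripts thus exceeded ligand transcripts 19.7-fold in control males, 16.5-fold in BPA males, 6.62-fold in control females and 14.5-fold in BPA females. The low ratio of female control came with its Igf2 level, as Igf2 made up 84.5% of ligand FPKM there and 58.9% to 69.9% in the other pools. The share of Igfbp7 in the binding proteins was 16.9%, 14.6%, 12.6% and 18.3%, while that of Igfbp5 was 15.0%, 16.0%, 17.8% and 13.2%.

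**Figure D4:**
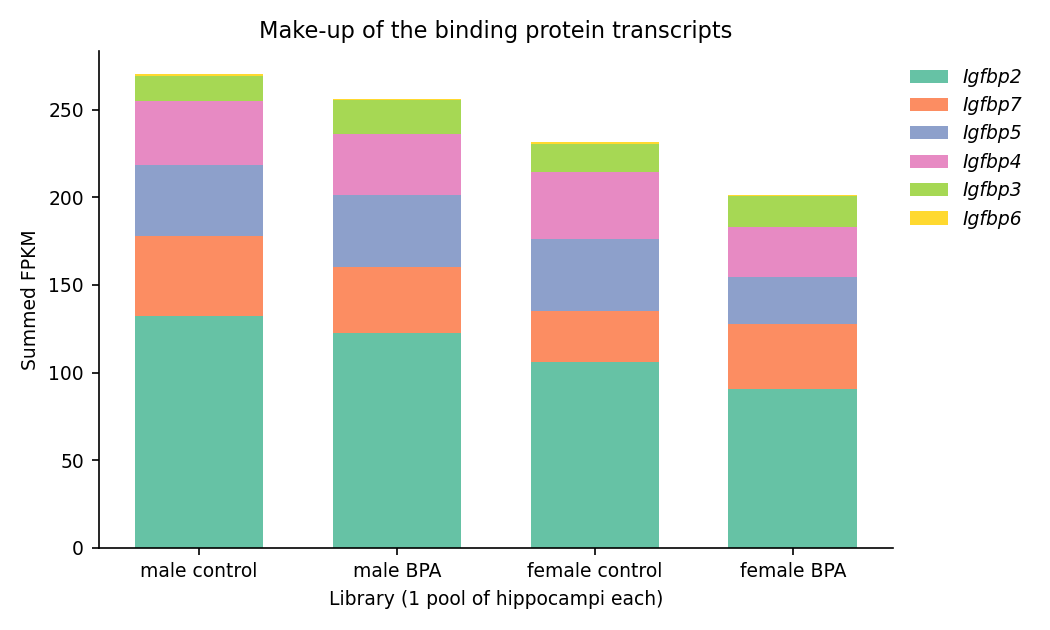
Summed FPKM of the 6 binding protein genes (vertical, from 0) in each of the 4 libraries (horizontal), with 1 colour per gene and no error bars. The total runs from 270 FPKM in male control to 201 FPKM in female BPA, and Igfbp2 is the largest block in each bar.

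Around the members, a list of 70 other genes of the pathway was described: substrates and kinases, insulin and growth hormone receptors, relatives and proteases of the binding proteins, and regulators of Igf2. Of these, 62 were listed in the files and 53 had a mean of at least 1 FPKM. The BPA and control libraries of both sexes (2 against 2) were compared with limma, with the Benjamini-Hochberg adjustment over 13542 rows. No pathway gene passed an adjusted p of 0.05 (0 of 53), and 0% of all rows did. At an unadjusted p under 0.05, 1 of the 53 (1.89%) passed, a smaller share than the 4.7% of all rows. It was Stat5b, a mediator of growth hormone signals, named after its values were seen. Stat5b was at 7.01, 4.81, 6.02 and 4.18 FPKM, lower in BPA in both sexes by a mean of -0.45 ± 0.16 (SE) on the log2 scale, with a limma adjusted p of 0.973. With sex as a covariate limma called 0 of the 53 and 0.0148% of all rows (2 rows) at an adjusted p of 0.05, the smallest adjusted p of a pathway gene was 0.495, and 4 of the 53 (7.55%) passed unadjusted, against 8.98% of all rows.

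In the comparison of female with male libraries, limma called 0 of the 53 pathway genes and 0.00738% of all rows, which was 1 row, Xist, the RNA of the inactive X chromosome. The pathway gene with the smallest p was Igfbpl1, a relative of the binding proteins found in young neurons. Its values were 100.2, 102, 61.7 and 79.3 FPKM, with both female pools under both male pools. The log2 difference was -0.53 ± 0.12 (SE), and the limma adjusted p was 0.256. At an unadjusted p under 0.05, 5 genes (9.43%) passed, 3 lower in females, Igfbpl1 among them, and 2 higher, against 10.6% of all rows. With treatment as a covariate limma called 0 of the 53 and 0.406% of all rows (55 rows), the adjusted p of Igfbpl1 was 0.0627, and 5 of the 53 passed unadjusted, against 14.3% of all rows.

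Within a sex, 4 pathway genes passed 0.5 by size alone, 2 of 53 in males and 2 of 53 in females, shares of 3.77% each. The backgrounds were 3.46% in males and 6.15% in females for rows with a gene ID, which these genes have, and 7.26% and 10.1% for all rows. Ghr, the growth hormone receptor, was at 4.33 FPKM in male control and 2.39 in male BPA, 1.81-fold lower in BPA (counting interval 1.30 to 2.54), and at 2.94 and 2.49 FPKM in the female pools. Timp1, an inhibitor of the metalloproteinases that cut binding proteins and matrix, was at 10.1 FPKM in male control and 15.8 in male BPA, and at 11.7 and 12.5 FPKM in the females. H19 and Cdkn1c, an imprinted inhibitor of the cell cycle, were those of the females. Cdkn1c was at 9.41, 8.91, 12.8 and 7.96 FPKM, and again female control was highest.

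Downstream of the receptors, 35 of 36 substrates and kinases were measured, and 0 of the 35 passed 0.5 in males or in females, beside the same backgrounds. Irs1, the adaptor that links receptor to PI3K, was at 6.55 to 8.68 FPKM and its relative Irs2 at 11.1 to 13.9 FPKM. The kinase Akt1 was at 131 to 148 FPKM and Mtor at 18.6 to 20.9 FPKM. The transcription factor Foxo1, named after its values were seen, was at 7.72, 10.98, 9.70 and 6.70 FPKM, higher with BPA in the male pools and lower in the female pools, and it was the 1 pathway gene of 53 (1.89%) past 0.5 between the BPA pools, where 4.62% of rows with a gene ID passed. Between the control pools 3 of 53 (5.66%) passed, against 5.88% of rows with a gene ID, H19 and Stc1 (1.17 and 2.11 FPKM in males and females, named after its values were seen) higher and Igfbpl1 lower in females. Insr, the insulin receptor, was at 9.64 to 10.4 FPKM.

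Carriers and proteases of the ligands differed widely in level. Igfbp1, the binding protein of liver, was at 0.16 to 0.64 FPKM, Igfals, the acid-labile subunit of the serum complex, at 0.01 to 0.05 FPKM, and Pappa, the protease that cuts IGFBP4, at 0.21 to 0.31 FPKM. Other proteases that can cut binding proteins were higher, and are named after their values were seen. Ctsd, a lysosomal protease, was at 68.6 to 73.9 FPKM, the serine protease Htra1 at 11.5 to 14.6 FPKM and the metalloproteinase Mmp2 at 5.32 to 6.10 FPKM. The mRNA-binding proteins of Igf2 were low. Igf2bp1 was at 1.17 to 1.55 FPKM and Igf2bp2 at 2.52 to 3.11 FPKM, and Igf2bp3, present only as a new gene model matched by protein, was at 2.06 to 2.50 FPKM. Plagl1, an imprinted transcription factor, was at 14.5 to 16.7 FPKM. The genes Ins1, Ins2, Gh1, Irs4, Pappa2, Lin28b and Airn had no row in the files used here.

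**Figure D5:**
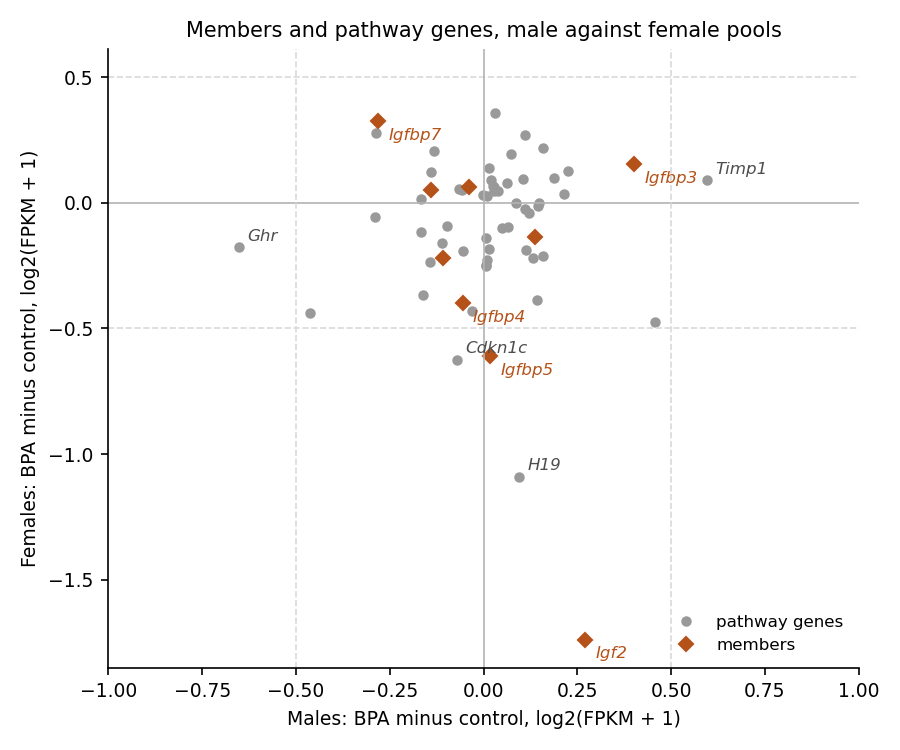
Log2(FPKM + 1) difference between BPA and control in male pools (horizontal) and in female pools (vertical) for 53 pathway genes (grey circles) and 9 members (diamonds, Igfbp6 left out as under the filter), 1 pool per group and no error bars, with dashed lines at 0.5 on either side of 0. Igf2 lies lowest, at -1.74 in females, followed by H19 at -1.09, while most points lie within the dashed lines.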

How the data were processed

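RNA-seq of 4 pooled libraries was used. The authors deposited FPKM values per gene, to 2 decimals with 0.01 as the lowest. The submitters' processing notes name HISAT 0.1.6, Bowtie2 2.2.5, RSEM and rn6 without their roles, and the annotation is not given in the sources used here.

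Rows were joined by gene ID. Differences are of log2(FPKM + 1), which understates changes of low genes, in genes with a mean of at least 1 FPKM over the libraries compared. Depth was estimated from the steps of low FPKM values (96.0% to 98.9% lay within 0.15 of a whole fragment, against 30% if evenly spread), and each gene's fragments, with exact Poisson or Clopper-Pearson 95% intervals, follow from its length in the file. These assume that length to be the effective one up to a fitted offset.

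Pathway genes were tested with limma (version 3.58.1, under R version 4.3.3, moderated with a mean trend, 2 libraries against 2, Benjamini-Hochberg adjusted p under 0.05, rows listed in all 4 files with a mean of at least 1), which treats the 2 libraries of the other label as replicates. The fit and the depth estimate were tested on simulated data. Other steps used Python 3.11.15 with matplotlib 3.10.9, scipy 1.17.1, pandas 2.3.3 and numpy 2.4.6. The members, the pathway and marker lists and the thresholds were chosen with earlier results of these data known. Named were all members, pathway genes past 0.5 in either sex, 17 fixed pathway genes and the 5 rows (mean of at least 5 FPKM) most like the member of widest fold range. The values of some of these and of some markers are not reported here. Alternatives were a pseudocount of 0.1, other filters, quantile normalization, median-ratio scaling, a threshold of 1, the other label as covariate, an unadjusted p and each library left out.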

Additional observations from a re-analysis of the deposited data

Results flagged for a closer look

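In 3 genes, the BPA and control pools differed in opposite directions in the 2 sexes. Each difference exceeded the counting error of fragments in the FPKM as deposited. The share of all rows that did the same is not given here, so the number has no background. The difference between the sexes was not tested, since each group is 1 library and the genes were chosen with their values known. For Igf2 the log2 difference, BPA minus control, was 0.27 in males and -1.74 in females. For Igf2r it was 0.14 in males and -0.13 in females. The female value of Igf2r was smaller with other scaling, -0.09 with median-ratio scaling and -0.08 with quantile normalization. Its counting interval was not recomputed for these. For Igfbp7 it was -0.28 in males and 0.32 in females. The female value of Igf2 rests on the female control pool, in which meningeal and fibroblast markers summed to 380 FPKM against 86.5 to 105 FPKM in the other pools. Without Ptgds, the leading gene, the sum was 171 FPKM against 61.2 to 76.4 FPKM. The part of these tissues in the Igf2 value was not tested.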

How the results depend on the processing

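With 1 library per group, counting intervals do not cover variation between pools, and Igfbp6, on 2 to 10 fragments, is the member that depth limits most. Libraries could be paired only by the other label, since each group was 1 library. The fit with that label as covariate makes this pairing and leaves 1 residual degree of freedom. It called 0 pathway genes in both comparisons. Over all rows it called 2 in place of 0 for BPA against control, and 55 in place of 1 for female against male. The 40 member differences were recomputed with a pseudocount of 0.1, quantile normalization and median-ratio scaling. All 120 values lay within counting error of the value reported, and 1 changed sign, Igfbp7 between the BPA pools, from -0.02 to 0.02 with median-ratio scaling. No new gene model matched a member, so the sum with new models gave no value. A threshold of 1 left 1 of the 2 members in females, 1 of the 3 between the control pools and 0 between the BPA pools. The share of all rows past 1 is not given here, so these counts have no background. Quantile normalization left 2 of the 3 between the control pools, as Igfbp6 went from 0.52 to 0.44. Without the filter on low values, an alternative chosen after seeing the data, 2 members passed between the BPA pools. For the pathway genes, an unadjusted p under 0.05 called 1 for BPA against control and 5 for female against male, where 4.7% and 10.6% of all rows passed. Leaving out each library gave 0 calls by adjusted p, in fits of 2 libraries against 1 in which the lone library is assumed to vary like the others, and this says nothing about stability.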
